A study of Oncorhynchus mykiss with 48 samples.

Results

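The subject is a set of 200 liver genes of the rainbow trout whose share of the messenger RNA fell between the juvenile stage and 1 year of age in untreated fish of both generations. They are 200 of the 46585 genes in the deposited tables, or of 46568 after 17 genes marked by Cuffdiff as too abundant to process (HIDATA) were removed. They were chosen by the levels measured in the 16 Control fish alone. A gene's CPM (its fragments out of every 1000000 assigned to genes in that fish) was averaged over the 4 Control fish of each generation and age, and the 100 genes with the highest mean CPM over all Control fish were set aside. A gene then needed at least 2 CPM at both early time points, which 11484 genes had, and a log2 ratio of early over 365 dpf level, with 0.5 CPM added to both, of at least 1 in each generation. Of the 591 genes that met both conditions, the 200 with the highest smaller ratio were kept, and each is numbered here by its place in that order.

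Liver RNA had been sequenced from 48 fish, 4 in each of 12 groups formed by 3 treatments, 2 generations and 2 ages (days post fertilization, dpf). F1 fish, sampled at 140 and 365 dpf, hatched from eggs of untreated females that were incubated before fertilization in ovarian fluid with vehicle, 3 mg/l or 30 mg/l bisphenol A (BPA), which left 0 (Control), 4 (BPA4) or 40 (BPA40) ng in each egg. F2 fish, sampled at 112 and 365 dpf, came from the eggs of F1 females of these 3 groups and the sperm of untreated males, so that an F2 fish carries the name of its mother's treatment and was never incubated itself. Eggs and milt were each pooled from several parents, and the fish of all groups were raised without further BPA and had food withheld before sampling. F1 treatments were held in replicate tanks, with the tank of each fish not given, while the F2 fish of a treatment shared a single tank, so that in F2 treatment and tank cannot be told apart.

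The trout liver makes most of the proteins of the blood plasma and handles the lipid, glycogen and amino acids that a growing fish takes in. Trout grow fastest relative to their size as juveniles, and many liver transcripts change in abundance as a fish passes from that phase to the slower growth of a yearling. BPA, used to make plastics and epoxy resins, binds oestrogen receptors, through which the liver of egg-laying fish is stimulated to make yolk proteins. The tables carry identifiers of the genome annotation without gene names, and 0 of the 200 identifiers matched the reference table of trout genes used here. The members are therefore described by number and level, 4 of them are identified, and neither their function nor the liver identity of the samples could be checked against marker genes. Trout also hold many near-identical gene copies from a past genome duplication, and which of the 200 share fragments with a copy could not be examined.

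The fragments assigned to genes ran from 6788947, in a BPA4 fish of F2 112 dpf, to 19528494, and between 14633 and 30117 genes had at least 5 fragments in a fish. The median number of such genes was lowest at F2 112 dpf, where a fish had 14633 to 21312 of them, and F1 140 dpf, the next, had 21244 to 24863. Each time point was sampled and quantified separately, and whether its libraries were prepared together is not given in the sources used here, so that age and preparation cannot be told apart. A share of RNA in whole liver falls alike when fewer cells of a type are present and when each cell holds less of the RNA, and these cannot be told apart either.

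In the Control fish, whose values chose the genes and are given without a test, the 200 genes took up 1.39% ± 0.177 (SD, n = 4) of all fragments at F1 140 dpf and 0.379% ± 0.0722 at F1 365 dpf. In F2 Control fish the share was 2.09% ± 0.314 at 112 dpf and 0.364% ± 0.0545 at 365 dpf. The median gene went from 15.3 to 3.35 CPM in F1 and from 29.7 to 5.32 CPM in F2. In FPKM, which divides by transcript length, the median gene of the set went from 8.63 to 1.90 in F1 and from 16.3 to 3.26 in F2. Cuffdiff scaled FPKM within each time point, so that a change between ages in FPKM may also reflect that scaling. Without the 200 members, the median of the genes that passed the early minimum lay between 5.01 and 6.44 FPKM in the same 4 groups. The median log2 ratio of early over late was 1.78 in F1 and 2.33 in F2, and F1 gave the smaller ratio for 160 of the 200 genes. That smaller ratio ran from 4.33 for number 1 down to 1.44 for number 200, and the 5 genes just past the limit had values of 1.44 to 1.43.

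The share of fragments separated the ages in all treatments. Over the 12 fish of an age in F1, it ran from 0.866% to 1.72% at 140 dpf and from 0.272% to 0.756% at 365 dpf, so that the lowest early fish was above the highest late fish. In F2 it ran from 1.56% to 2.53% at 112 dpf and from 0.249% to 0.905% at 365 dpf. The BPA fish took no part in the choice of the genes. Their mean share at 140 dpf was 1.27% ± 0.364 in F1 BPA4 and 1.30% ± 0.276 in F1 BPA40, and at 365 dpf it was 0.484% ± 0.199 and 0.609% ± 0.108. In F2 it was 1.70% ± 0.150 in BPA4 and 1.86% ± 0.215 in BPA40 at 112 dpf, and 0.358% ± 0.126 and 0.626% ± 0.205 at 365 dpf.

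**Figure D1:**
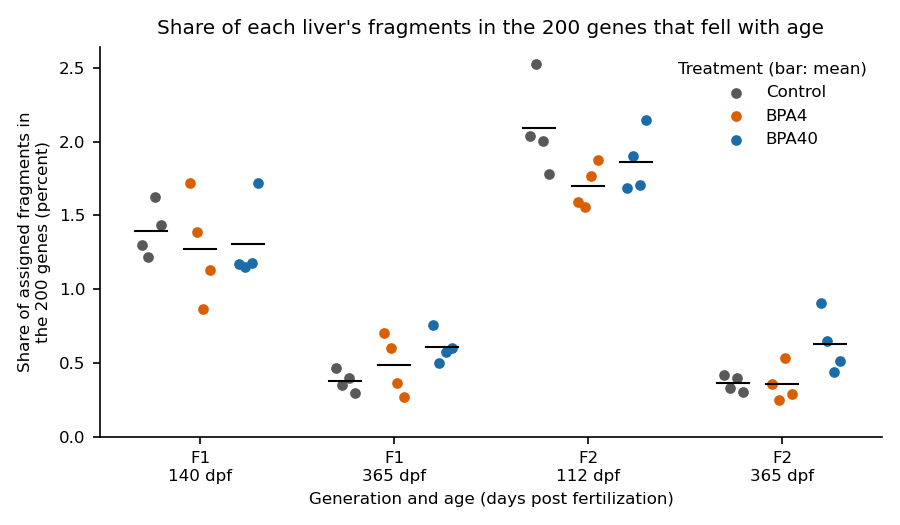
Share of each fish's assigned fragments (percent, vertical axis) that fell in the 200 genes, by generation and age, with 1 point per fish, 4 fish per treatment and a bar at the mean. Every fish at 140 or 112 dpf lies above every fish of its generation at 365 dpf, and the Control fish (grey) chose the genes. The share is a sum, in which the most abundant genes weigh most.

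Whether the fall extended beyond the Control fish was asked in the 32 BPA fish, in one fit of their 8 groups. Fragment counts of 26296 genes, all 200 members among them, were tested with edgeR's quasi-likelihood test after TMM normalization, and p-values were adjusted over all genes tested. In F1, 123 members were called lower at 365 than at 140 dpf in BPA4, where 7.5% of all genes tested were called lower, and 138 in BPA40, where 12.6% were. In F2, 193 members were called lower at 365 than at 112 dpf in BPA4 (28.4% of all genes) and 182 in BPA40 (28.4% of all genes). No member was called higher at 365 dpf in any of the 4 comparisons. Of all genes tested, 11.4% and 18.9% were in F1 (BPA4 and BPA40), and 41.1% and 41.5% in F2. DESeq2 called 1 member higher at 365 dpf in F1 BPA40 and 1 in F2 BPA4, with its share over all genes not given here. In edgeR, 1 passed an unadjusted p of 0.05 in each of these. With 1 fish left out, F1 BPA4 gave between 71 and 138 calls, the fewest without the BPA4 fish of F1 365 dpf that bears replicate number 3.

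The median fall of the members on the log2 scale was 1.52 in F1 BPA4 (quartiles 1.10 and 1.96) and 1.55 in F1 BPA40 (1.18 and 2.01), while the median over all genes tested was -0.10 and -0.12. In F2 the median fall was 3.29 in BPA4 (2.68 and 3.86) and 2.69 in BPA40 (2.09 and 3.47), against all-gene medians of -0.53 and -0.56. These folds depended on the scaling in F2, where TMM factors were 0.547 to 0.828 at 112 dpf and 1.26 to 1.60 at 365 dpf. On plain CPM, without those factors, the F2 medians were 2.38 and 1.62 for the members and -1.41 and -1.56 for all genes. Taken relative to the median of all genes, the members fell by 3.82 and 3.25 with TMM and by 3.79 and 3.18 without it. The folds of single members given below are on the TMM scale too, beside levels in plain CPM, and depend on it likewise in F2. All 4 early fish exceeded all 4 fish at 365 dpf in CPM in 71 members in F1 BPA4 (5.82% of all genes), 126 in F1 BPA40 (8.65%), 146 in F2 BPA4 (10.1%) and 112 in F2 BPA40 (9.71%).

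**Figure D2:**
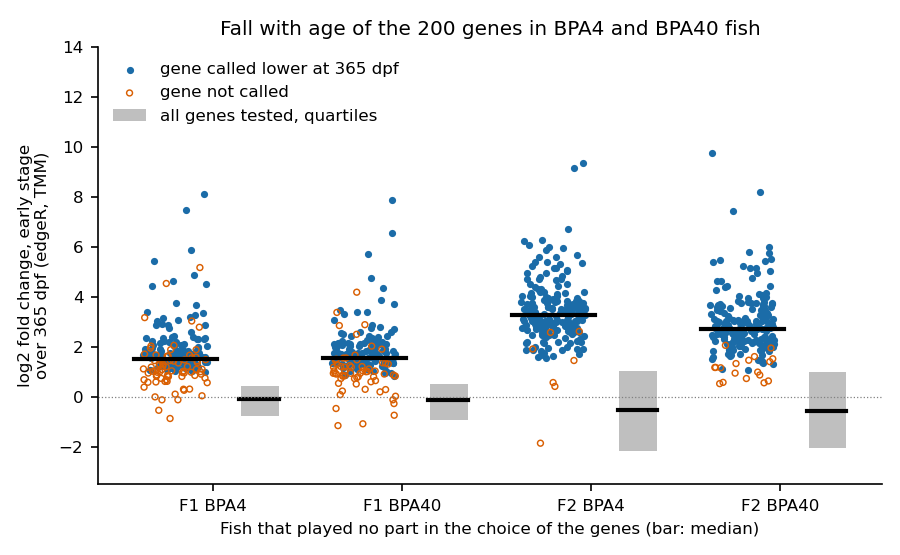
Log2 fold change of early stage over 365 dpf (vertical axis) in the BPA4 and BPA40 fish of each generation, with 1 point per member, filled where called at an adjusted p of 0.05, beside a grey box from the lower to the upper quartile of all 26296 genes tested and black bars at the medians. Member medians lie at 1.52, 1.55, 3.29 and 2.69, and the all-gene medians at -0.10, -0.12, -0.53 and -0.56.

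Of the 200 members, 103 were called lower at 365 dpf in all 4 comparisons, against 4.69% of all genes tested. In 3 of them 45 members were called (6.65% of all genes), in 2 of them 41 (15.8%) and in 1 of them 7 (6.7%). The 4 members called in none (66.2% of all genes) were numbers 155, 167, 193 and 195. The point estimate was above 0 in all 4 comparisons for 192 members. Of the 8 others, 7 had their estimates at or under 0 in F1, and none of these estimates was called. Number 147 stood at -0.13 ± 0.492 (SE) in F1 BPA4 and -1.09 ± 0.495 in F1 BPA40 but at 3.36 ± 0.536 and 3.94 ± 0.549 in F2, where it was called. Number 155 went the other way, with 2.03 ± 0.881 and 1.54 ± 0.868 in F1 and -1.86 ± 0.885 in F2 BPA4 (edgeR adjusted p = 0.0615), where 1 fish of 365 dpf had 383.4 CPM and the other 3 had 3.65 to 10.4 CPM. By the order set in the Control fish, the median fall in F1 BPA4 was 2.23 for numbers 1 to 50, 1.61 for 51 to 100, 1.33 for 101 to 150 and 1.20 for 151 to 200. The corresponding medians were 2.11, 1.56, 1.35 and 1.37 in F1 BPA40, 4.08, 3.46, 3.01 and 2.70 in F2 BPA4, and 3.40, 2.73, 2.53 and 2.24 in F2 BPA40. They fell with each step except the last in F1 BPA40.

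Number 1, GSONMT00076427001, had the largest smaller ratio in Control fish and very uneven levels. Its CPM in the 4 Control fish was 16.9, 23.2, 19.4 and 14.8 at F1 140 dpf and 0.805, 0.283, 0.137 and 0.294 at F1 365 dpf. The F2 Control fish had 22.1, 10.3, 298.4 and 45.9 CPM at 112 dpf and 12.4, 1.07, 2.92 and 0.50 CPM at 365 dpf. The Control groups did not overlap in F1, and overlapped in F2 through the single fish at 12.4 CPM.

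In BPA4 fish, number 1 stood at 101.1, 76.6, 9.15 and 17.5 CPM at F1 140 dpf and at 1.94, 2.25, 0.893 and 12.9 CPM at F1 365 dpf, a fall of 3.76 ± 1.317 on the log2 scale (edgeR adjusted p = 0.0443). That call was lost when any 1 of 5 fish of these groups was left out, with a highest adjusted p of 0.118, and under the RLE size factors (0.0526), without TMM factors (0.0609) and with a replicate block (0.0688). In BPA40 fish it stood at 257.3, 58.5, 95.3 and 62.8 CPM at F1 140 dpf and at 5.96, 0.234, 4.42 and 0.137 CPM at F1 365 dpf, a fall of 5.71 ± 1.439 (adjusted p = 0.00466). The BPA40 groups did not overlap in F1.

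In F2 BPA4 fish, number 1 went from 50.4, 10.6, 42.9 and 107.7 CPM at 112 dpf to 1.16, 0.186, 8.21 and 0.355 CPM at 365 dpf, a fall of 5.37 ± 1.426 (adjusted p = 0.00153). The F2 BPA40 fish had 106.2, 377.3, 38.8 and 244.0 CPM at 112 dpf and 476.4, 20.7, 1.76 and 7.23 CPM at 365 dpf, and their difference of 2.06 ± 1.205 was not called (adjusted p = 0.128). The highest of all 48 fish was thus a BPA40 fish at F2 365 dpf, replicate 0. Without it the fall was 5.45 with an adjusted p of 0.00107, and with the replicate block it was 3.18 (0.0443).

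Number 2, GSONMT00029694001, was at 0 fragments in all 8 Control fish at 365 dpf. The Control fish had 5.81, 8.72, 8.44 and 15.1 CPM at F1 140 dpf and 4.70, 9.54, 10.6 and 15.99 CPM at F2 112 dpf. In the BPA4 fish it stood at 1.40, 0.921, 1.25 and 5.07 CPM at F1 140 dpf and at 0.786, 3.98, 3.91 and 5.61 CPM at F2 112 dpf, and at 0 in all 8 fish at 365 dpf. Taking 3 fragments per fish as the limit that a count of 0 allows, its mean was at least 10.7-fold higher at F1 140 dpf and at least 18.2-fold higher at F2 112 dpf than at 365 dpf.

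In the BPA40 fish of F1, number 2 was low at both ages. It had 0.082, 0.226, 1.11 and 0.516 CPM at 140 dpf, which is 1, 3, 13 and 7 fragments, and 2, 1, 0 and 0 fragments at 365 dpf. The fitted fall was called (edgeR adjusted p = 0.0191) and was not when the fish with 13 fragments, replicate 2, was left out (0.111). In F2 BPA40 fish it had 6.69, 3.42, 4.59 and 3.49 CPM at 112 dpf and no fragment in any fish at 365 dpf, at least 27.2-fold lower. The F1 fish at 140 dpf thus stood in the order Control, BPA4 and BPA40 without an overlap between Control and either BPA group. The Control fish chose this gene for its level in them, and the difference between BPA4 and BPA40 was not called (adjusted p = 0.356).

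Numbers 3 to 10 had mean levels in Control fish of 6.44 to 89.8 CPM at F1 140 dpf, of 0.148 to 7.37 CPM at F1 365 dpf, of 6.48 to 163.4 CPM at F2 112 dpf and of 0.199 to 20.4 CPM at F2 365 dpf. In the BPA fish, 6 of these 8 were called lower at 365 dpf in all 4 comparisons and numbers 4 and 9 in 3 of them. The ages did not overlap for number 3 in any of the 4 comparisons. It stood at 11.8, 21.7, 5.74 and 7.35 CPM at F1 140 dpf and 0.534, 1.02, 0.383 and 0.715 CPM at F1 365 dpf in BPA4 fish, a fall of 4.45 ± 0.796 (edgeR adjusted p = 0.00106). In F2 BPA40 fish it went from 67.8, 139.2, 57.9 and 64.9 CPM at 112 dpf to 0.742, 1.02, 0.293 and 0.504 CPM at 365 dpf, a fall of 8.19 ± 0.893 (adjusted p = 9.97e-09). Number 4 differed by 0.60 ± 0.708 in F1 BPA40, where its level was 0.378 to 1.62 CPM at 140 dpf and 0.293 to 1.26 CPM at 365 dpf, so that the 2 ages overlapped.

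The comparison of generations asked whether the fall was of the same size in F1 and F2, with the BPA4 and BPA40 fish averaged. It was larger in F2 for 126 members, where 21.2% of all genes tested were called in that direction, and smaller for 1, where 30.9% were. The median difference of the falls was 1.39 on the log2 scale, against -0.39 over all genes tested. Without TMM factors the counts were 57 (8.11% of all genes) and 6 (55.3%) and the medians 0.53 and -1.25, and the members exceeded the all-gene median by 1.78 under either scaling. All genes tested include those that rose with age, whereas the members were chosen to fall. Among genes above the early minimum, 2438 had a Control log2 ratio of at least 1 in F2 and 1060 in F1. A ratio of at most -1 was found for 2841 in F2 and 684 in F1. Whether the larger fall in F2 is particular to the members among falling genes was not tested. The early stages of the generations also differ in age, so that generation and the step from 112 to 140 dpf cannot be told apart.

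Between the generations, more genes were called at the early stage than at 365 dpf, among the members as among all genes tested. At the early stage, 140 members were called higher at F2 112 dpf than at F1 140 dpf (24.2% of all genes) and 2 lower (35.1%), with a median of 1.24 against -0.34 over all genes. Here too all genes include those that rose with age. Without TMM factors 90 were called higher (12.9% of all genes) and 9 lower (52.9%), with a median of 0.65 against -0.90. At 365 dpf, 1 member was called higher in F2 (3.55% of all genes) and 15 lower (3.36%), with a median of -0.17 against 0.00. That split was 8 higher (11.5% of all genes) and 11 lower (1.11%) without TMM factors, which moved the median of the members to 0.13 and that of all genes to 0.30. Among the members 118 were called both higher at the early stage and larger in their fall, as were 19.3% of all genes, and both calls use the same early fish. Of the 16 members called between generations at 365 dpf, 8 were also called at the early stage, all of them higher in F2 early and lower in F2 at 365 dpf. The share of all genes called at both ages is not given here. Those directions were also the common ones among the members called at each age, with 140 higher early and 15 lower at 365 dpf.

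**Figure D3:**
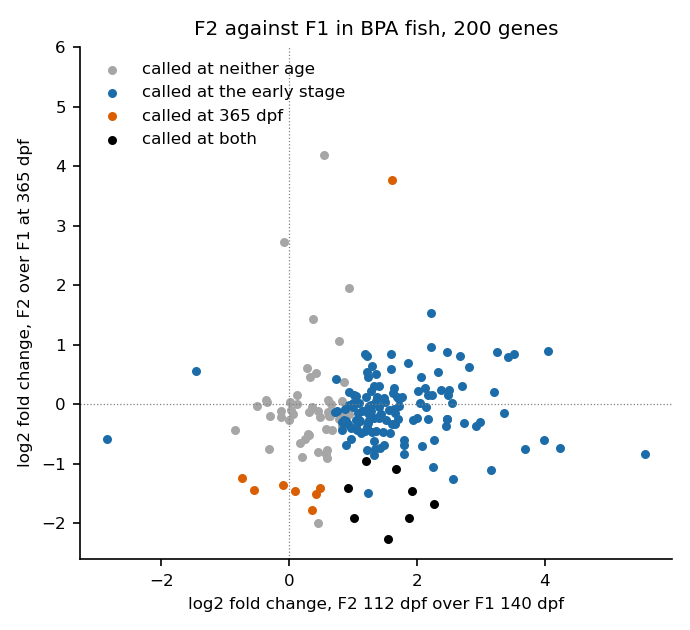
Log2 fold change of F2 112 dpf over F1 140 dpf (horizontal axis) and of F2 over F1 at 365 dpf (vertical axis) in BPA fish, with 1 point per member and both doses averaged. Most points lie to the right of 0, with a median of 1.24, while the vertical median is -0.17, and colours show at which age a gene was called at an adjusted p of 0.05.

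Number 192 had the smallest p for a larger fall in F2. In BPA4 fish it stood at 4.71, 1.92, 1.75 and 2.65 CPM at F1 140 dpf and at 3.60, 2.32, 2.62 and 1.57 CPM at F1 365 dpf, groups that overlapped. In F2 BPA4 fish it stood at 30.7, 95.6, 32.3 and 61.0 CPM at 112 dpf and at 1.62, 1.98, 2.74 and 1.42 CPM at 365 dpf, which did not overlap. The BPA40 fish of F1 had 115, 105, 118 and 103 fragments at 140 dpf and 43, 54, 123 and 19 at 365 dpf. Taken as CPM, these ages did not overlap, and neither did those of the F2 BPA40 fish. The fall was 4.58 ± 0.457 larger in F2 than in F1 over both doses (edgeR adjusted p = 1.22e-08). Numbers 166 and 147 followed, at 4.44 ± 0.495 and 4.25 ± 0.510. The exception, number 77, fell less in F2, by -2.80 ± 1.167 (adjusted p = 0.0450), and its fish ranged from 9.07 to 652.9 CPM at F1 140 dpf and from 4.52 to 91.8 CPM at F2 365 dpf.

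At 365 dpf, number 165 had the smallest p between generations. It stood at 7.81, 8.73, 4.47 and 3.51 CPM in F1 BPA4 and at 1.45, 0.929, 0.842 and 1.63 CPM in F2 BPA4, and was lower in F2 over both doses by -1.91 ± 0.256 (edgeR adjusted p = 7.01e-05). The Control fish, which were outside the fit, overlapped between the generations. They had 91, 67, 40 and 56 fragments at F1 365 dpf and 75, 58, 120 and 49 at F2 365 dpf. Numbers 5 and 96 were also lower in F2, by -1.41 ± 0.262 and -2.26 ± 0.442. Number 11 was the member called higher in F2 (3.77 ± 1.119, adjusted p = 0.0369), with levels of 0.143 to 22.4 CPM in the F1 and 0.923 to 398.5 CPM in the F2 BPA fish of that age. Its groups overlapped. The 2 members called lower at the early stage of F2 were number 39 (-2.85 ± 0.554) and number 155 (-1.46 ± 0.617).

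The doses were compared at each time point as BPA40 against BPA4, which share their fish with the age comparisons. Few members were called, although the estimates leaned to one side at 3 of the 4 time points. At F1 140 dpf, 2 members were called, both higher in BPA40 (0.0913% of all genes were called in either direction), and DESeq2 called 2 (0.392%). The median was 0.47 with 151 members above 0. At F1 365 dpf, 0 were called by edgeR (0.0038% of all genes) and 2 by DESeq2 (0.323%), with a median of 0.43 and 164 members above 0. At F2 112 dpf, 0 were called by edgeR (0.0114%) and 0 by DESeq2 (0.118%), with a median of 0.02 and 104 members above 0. At F2 365 dpf, 1 was called, higher in BPA40 (0.038%), and 4 by DESeq2 (0.122%), with a median of 0.61 and 173 members above 0. The medians over all genes tested were 0.02, 0.04, 0.03 and -0.03 in the same order, with 51.6%, 54.0%, 52.8% and 46.3% of them above 0.

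At an unadjusted p of 0.05, 30 members passed in F1 at 140 dpf (8.13% of all genes) and 19 in F1 at 365 dpf (5.02%). In F2, 5 passed at 112 dpf (6.91%) and 43 at 365 dpf (6.23%). Leaving out the BPA4 fish of replicate 1 at F1 140 dpf raised the 0 calls of F1 365 dpf to 1. The medians rested in part on single fish. Leaving out 1 fish at a time moved the median between 0.34 and 0.74 at F1 140 dpf, between 0.15 and 0.64 at F1 365 dpf, between -0.10 and 0.11 at F2 112 dpf and between 0.43 and 0.91 at F2 365 dpf. The value of 0.15 was without the BPA4 fish of replicate 3 at F1 365 dpf, and that of 0.34 without replicate 2 of BPA4 at F1 140 dpf, while 0.43 was without replicate 2 of BPA4 at F2 365 dpf. The highest of these medians were without replicate 0 of BPA4 at the respective time points of F1 140, F1 365 and F2 365 dpf.

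Whether the fall itself differed between doses was tested as an interaction. No member was called by edgeR in F1 or in F2, where it called 0.0% of all genes in either generation. DESeq2 called 0 members in F1 and 1 in F2, with its share over all genes not given here. At an unadjusted p of 0.05, 5 members passed in F1 (2.56% of all genes) and 20 in F2 (6.59%). The fall in BPA40 minus that in BPA4 had a median of 0.04 in F1, with 106 members above 0, and of -0.59 in F2, with 158 below 0. Over all genes the median was -0.02 in F1, with 47.7% above 0, and 0.04 in F2, with 52.8% above 0.

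Both members called at F1 140 dpf were also the pair with the smallest p for BPA40 above BPA4 over the 4 time points. Number 73, GSONMT00039044001, stood at 42.2, 41.5, 46.3 and 28.0 CPM in BPA40 and at 1.54, 8.45, 2.00 and 3.16 CPM in BPA4, a difference of 3.19 ± 0.495 (edgeR adjusted p = 0.00540). The Control fish had 9.68, 14.4, 7.57 and 10.8 CPM, all under the BPA40 fish, and overlapped BPA4 through the BPA4 fish at 8.45 CPM. At F1 365 dpf the BPA40 fish had 19.4, 17.5, 12.7 and 8.37 CPM and the BPA4 fish 1.40, 2.86, 3.32 and 2.07 CPM, which did not overlap, with a difference of 2.56 ± 0.490 that was not called (adjusted p = 0.0902).

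In F2 the doses overlapped at both ages for number 73. The BPA40 fish had 64.5, 56.9, 60.7 and 63.4 CPM at 112 dpf against 42.4, 27.8, 102.3 and 61.6 CPM in BPA4, a difference of 0.11 ± 0.445. At 365 dpf the difference was 0.11 ± 0.452. The gene fell by 3.51 with age in both F2 doses and by 1.62 ± 0.458 in F1 BPA40 (edgeR adjusted p = 0.00932), while its 1.00 ± 0.489 in F1 BPA4 was not called (0.142).

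Number 175, GSONMT00000587001, had 8.86, 6.27, 9.97 and 7.23 CPM in BPA40 and 3.30, 2.15, 2.00 and 1.69 CPM in BPA4 at F1 140 dpf, a difference of 1.77 ± 0.326 (edgeR adjusted p = 0.0173). The doses did not overlap, and the Control fish lay between 2.86 and 4.98 CPM. The difference at F1 365 dpf was 1.49 ± 0.332 and not called (adjusted p = 0.199), with 2.33 to 7.85 CPM in BPA40 and 1.07 to 1.98 CPM in BPA4. In F2 it was 0.03 ± 0.301 at 112 dpf and 0.22 ± 0.314 at 365 dpf, where the doses overlapped. In a fit of the 8 fish of F1 140 dpf alone, neither gene was called, with adjusted p of 0.293 for number 73 and 0.290 for number 175. Without replicate 2 of BPA4 neither was called (0.0544 and 0.133), and number 175 was also not called without replicate 3 of BPA4 (0.135) or replicate 0 (0.0641) or 2 (0.100) of BPA40.

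Number 165, the member called at F2 365 dpf, stood at 5.65, 5.84, 2.29 and 6.56 CPM in BPA40 and at 1.45, 0.929, 0.842 and 1.63 CPM in BPA4, a difference of 1.95 ± 0.376 (edgeR adjusted p = 0.0492). Its doses did not overlap. The Control fish had 5.26, 3.44, 7.00 and 2.72 CPM, values that entered the choice of the gene. The call was lost, leaving 0 members, when any of 9 of the 32 BPA fish was left out, which were all 4 BPA4 fish and the BPA40 fish of replicates 0, 1 and 3 at F2 365 dpf, replicate 0 of BPA40 at F1 140 dpf and replicate 2 of BPA40 at F1 365 dpf. It was also lost with the replicate block.

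**Figure D4:**
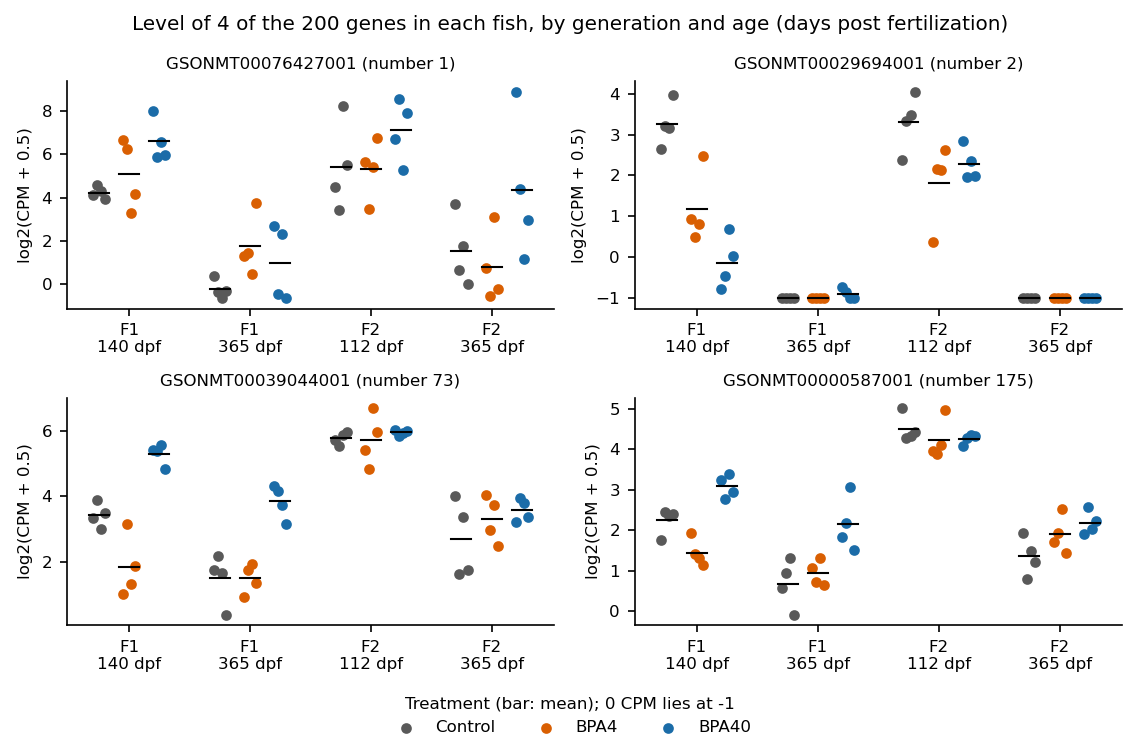
Level of the 4 identified genes in each of the 48 fish as log2(CPM + 0.5) (vertical axes, where 0 CPM lies at -1), with 4 fish per treatment at each generation and age and a bar at the mean of the log values. Numbers 73 and 175 are higher in BPA40 than in BPA4 at F1 140 dpf with no overlap, and number 2 is at 0 CPM in every F2 fish at 365 dpf.

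The members differed in how they varied between fish of one group. Deviations of log2(CPM + 0.5) from the group mean were correlated between all pairs of members over the 32 BPA fish, and the genes were joined by average linkage down to a Pearson r of 0.5, as a description without a test. The largest group held 87 members, with a median pairwise r of 0.76 (quartiles 0.64 and 0.84), and the next groups held 16, 9 and 5. The other 113 members had a median r of 0.13 among themselves. In the 16 Control fish, which played no part in this grouping, the median r was 0.73 among the 87 and 0.10 among the 113. All points share their libraries, and a gene at few fragments also varies by counting error.

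The median fall of the 87 co-varying members was smaller than that of the other 113 in all 4 comparisons of age. Their median Control levels were 15.5 CPM at F1 140 dpf and 3.98 CPM at F1 365 dpf, where the others had 14.9 and 3.18 CPM, and 14 of them were among numbers 1 to 50. Their median fall in the BPA fish was 1.42 and 1.51 in F1 BPA4 and BPA40 and 3.02 and 2.28 in F2, and 1.70, 1.59, 3.48 and 3.04 for the others. Of the 87, 59, 71, 87 and 83 were called lower at 365 dpf in these comparisons, and of the 113, 64, 67, 106 and 99. Of all genes tested, 7.5%, 12.6%, 28.4% and 28.4% were. None of the 87 was among the 16 called between generations at 365 dpf. Their estimates for BPA40 against BPA4 were above 0 for 86 of 87 in F1 at 140 dpf and for 84 at 365 dpf. In F2 they were above 0 for 33 at 112 dpf and for 87 at 365 dpf. Of the other 113, 65 and 80 were above 0 in F1 at 140 and 365 dpf, and 71 and 86 in F2 at 112 and 365 dpf. At F1 140 dpf the median was 0.68 for the 87 and 0.12 for the 113. As genes that vary together, the 87 are not 87 separate observations.

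A gene was said to follow the co-varying members when its deviations correlated with their mean deviation at r above 0.7 in both the BPA and the Control fish. That held for 71 of the 87, which are part of that mean themselves, and for 0 of the 113. The 113 had been set apart by the same deviations of the BPA fish, so that neither count is a result separate from the grouping. It also held for 77 of the 391 genes that met the rule but ranked after 200 (19.7%) and for 242 of all 26296 genes tested (0.92%). The rule used the same Control fish.

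At 365 dpf single fish stood far from the rest of their group in the 87 genes. The grouping and its r were not repeated without them. The median log2(CPM + 0.5) of the 87 genes was 2.93, 2.80, 2.60 and 0.59 in the F1 BPA4 fish at 365 dpf, and 2.49, 2.203, 0.32 and 2.23 in the F1 Control fish of that age. In these groups the low fish were replicate 3 of BPA4 and replicate 2 of Control. They had 13981939 and 14631911 fragments and 25908 and 25608 genes with at least 5 fragments, within the range of the other fish of F1 365 dpf. The other 113 members were at 1.98 in that BPA4 fish, where its group had 1.93 to 2.50, and at 1.31 in that Control fish, the lowest of a group with 1.31 to 2.04. In the 4 F2 BPA4 fish at 365 dpf the 87 genes were at 3.14, 2.40, 1.17 and 2.31, and the 113 at 2.24, 1.90, 2.60 and 1.86, so that replicate 2 was the lowest for the former and the highest for the latter. The part of cell composition in this was not tested.

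**Figure D5:**
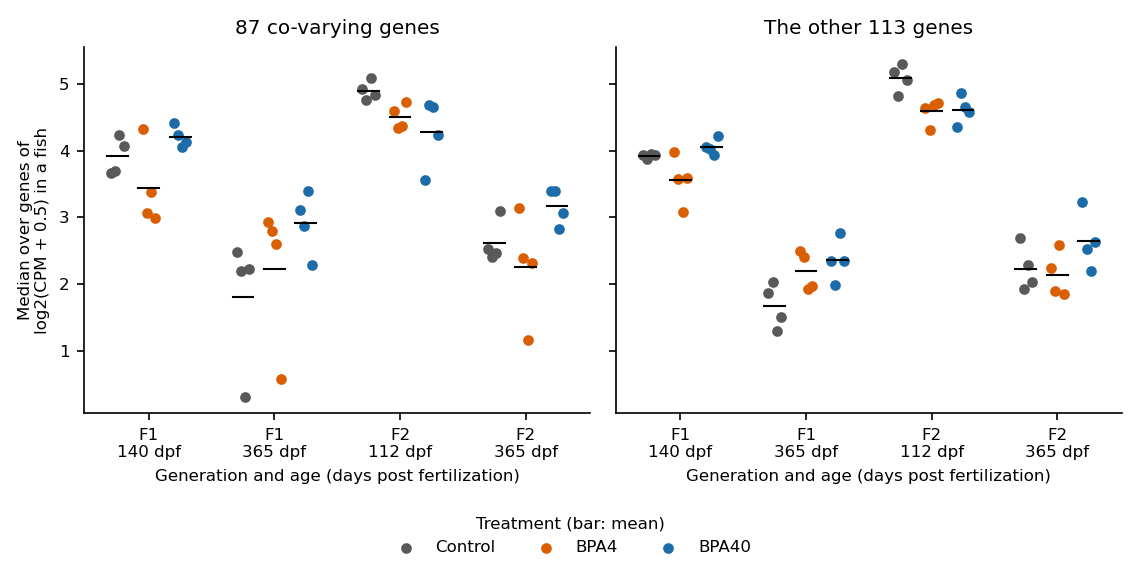
Median log2(CPM + 0.5) of the 87 co-varying members (left) and of the other 113 (right) in each fish, by generation and age, with 4 fish per treatment and a bar at the mean. On the left, 1 Control fish at 0.32 and 1 BPA4 fish at 0.59 lie under the rest of F1 365 dpf, while on the right the same fish lie at 1.31 and 1.98.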

How the data were processed

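Per the study's methods, the authors trimmed reads with bcl2fastq, mapped them to the published trout genome with Bowtie 2.2.6 and TopHat 2.1.0, and quantified them with Cufflinks and Cuffdiff. The deposited tables, 1 per time point, hold for each gene and fish a raw fragment count without normalization and an FPKM that Cuffdiff, as run by the authors, scaled over the 12 fish of the time point. Counts were whole in 100.0% of entries. HIDATA genes (8 to 14 per table, 17 in all) are listed at 0 and were left out. The 2 columns of scaled fragments in each table were not used.

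Members followed the rule given in the report. The members, the lists and the tests were chosen with earlier results of these data known. Fragment counts of the 32 BPA fish were tested with edgeR 4.0.16 (R 4.3.3, limma 3.58.1): TMM, filterByExpr, glmQLFit and glmQLFTest with default settings, no covariates, Benjamini-Hochberg adjustment over 26296 genes and a threshold of 0.05. Control fish entered no edgeR or DESeq2 fit, but were included in the search for fish that stood apart. Levels are plain CPM, whose total includes all deposited fragments, and folds are on the TMM scale. The SE beside a fold was derived from the test, as the absolute log2 fold change divided by the square root of the F statistic. The biological coefficient of variation was 36.8%. Bounds for counts of 0 used 3 fragments per fish and cover counting error only. Figures used matplotlib 3.10.9.

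The identifiers printed are those of numbers 1 and 2 and of the 2 members with the smallest p for BPA40 above BPA4. Others are named by number where they rank 3 to 10, lie at the limit, or have the 3 smallest p of a direction between doses, generations or in an interaction. Numbers 167, 193 and 195 were singled out after their values were seen. The markers of liver and other cell types that had been listed could not be applied without gene names.

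Treatments came from the sample labels. The titles of early F2 samples say 140 dpf and their other labels 112 dpf, which was used, and the descriptions of the F1 BPA40 samples name the lower incubation concentration, where the treatment label was followed. Counts of 48 pairs of BPA fish of a group differed beyond sampling noise (chi-square per degree of freedom 23.7 to 135.6), so that none were duplicates. Fish of a group came from the same pooled parents, and p-values measure the spread between these fish. Alternatives were DESeq2 1.42.0, RLE size factors, no TMM, other filters, a replicate block, fits of fewer groups, leaving out each fish, and other settings of the rule. The library total without HIDATA genes was added after seeing the data.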

Additional observations from a re-analysis of the deposited data

Results flagged for a closer look

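Fish that stood apart within their group of 4 were looked for with Dixon's test in 4 measures per group, or 48 tests, and 5 were flagged. Independent tests would flag about 1 in 20, or 2.4, by chance, but the 5 cannot be set against that number. The measures share genes, the Control fish chose the members, and the 87 co-varying members were grouped by deviations of the BPA fish. The median log2(CPM + 0.5) of all 200 members was 4.245 in replicate 0 of F1 140 dpf BPA4, where the other fish had 3.132 to 3.240. The members' share of fragments was 1.716% in replicate 3 of F1 140 dpf BPA40, against 1.153% to 1.174%. Number 28 had 5088 CPM in that fish and 988.9 to 1921 CPM in the others. The median of the 87 co-varying members was 0.324 in replicate 2 of F1 365 dpf Control (others 2.203 to 2.490), 0.586 in replicate 3 of F1 365 dpf BPA4 (2.597 to 2.934) and 3.096 in replicate 3 of F2 365 dpf Control (2.408 to 2.525).

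The change with age differed between the generations in 127 members by edgeR's test of the interaction, 126 with the larger fall in F2 and 1 with the larger fall in F1. Of all genes tested, which include those that rose with age, 21.2% and 30.9% were called in these directions.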

How the results depend on the processing

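Of 507 alternative counts of members, 475 lay within 1.5 times the count given above. Of 716 alternatives for single members and the rule, 697 were counted as unchanged, while a single member lost its call in 17 and gained it in 2. Those for the rule have no p-value and are among the 697. Most alternatives of both kinds left out 1 fish, often one outside the groups compared, where less change can arise. With at least 10 fragments in every fish, which leaves 121 members in the test, 40, 46, 109 and 92 were called lower at 365 dpf (F1 BPA4, F1 BPA40, F2 BPA4, F2 BPA40), 57 differed in their fall between generations and 77 between generations at the early stage. Shares over all genes are given for these alternatives, and for those of the next paragraph, only where printed beside a count. The stricter filter tests another set of genes, so that its counts cannot be set against the shares of the main fit. Without TMM factors 63 differed in their fall between generations, where 8.11% of all genes were called larger in F2 and 55.3% smaller. In that setting 1 differed between doses at F1 365 dpf. Between doses, DESeq2 called 2 at F1 365 dpf (0.323% of all genes) and 4 at F2 365 dpf (0.122%). It called 1 in the interaction of F2, and the stricter filter gave 2 at F1 365 dpf. The count of 1 at F2 365 dpf became 0 with RLE size factors, the stricter filter, the replicate block and the 8 fish alone, and that of 2 at F1 140 dpf became 0 with the 8 fish alone. The causes were not tested, beyond the fewer genes and fish.

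Leaving out 1 fish gave 71 to 138 calls with age in F1 BPA4, 113 to 151 in F1 BPA40, 191 or more in F2 BPA4 and 175 to 186 in F2 BPA40. Between doses it gave 0 to 2 at F1 140 dpf, 0 to 1 at F1 365 dpf, 0 at F2 112 dpf and 0 to 1 at F2 365 dpf. It gave 111 to 135 for the difference of the falls, 11 to 19 at 365 dpf and 133 to 149 at the early stage between generations. With the replicate block 123, 146, 194 and 185 were called with age. Replicate numbers did not pair the fish (mean r of deviations 0.007 with the same number and -0.002 with another). Other settings of the rule kept 159 to 194 of the 200 genes, 193 of them with the library total added after seeing the data, and leaving out 1 Control fish kept 167 to 193. Between 1 and 76 of the 200 members had under 10 fragments in a fish, 10 of them in the shallowest fish, and counting error is largest for these.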
